A study of Mus musculus with 8 samples.

Results

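The genes described here are 10 classical readouts of the epithelial-mesenchymal transition (EMT): the transcription factors Snai1, Snai2, Twist1, Twist2, Zeb1, Zeb2 and Foxc2, the cadherins Cdh1 and Cdh2, and the filament protein vimentin (Vim). They were found by the RefSeq accession of each probe, which gave 12 of the 41174 probes on the array, 3 of them for Zeb2, and 10 of the 18883 gene symbols that could be named. RNA came from mammary tumour cell lines of FVB mice carrying the polyoma middle T (PyMT) transgene, and all cells had received 50 uM camptothecin (CPT), a topoisomerase I poison, for 36 h. Every array carried the Cy5-labelled RNA of 1 sample together with a Cy3-labelled reference RNA mixed from 11 mouse cell lines, so a level is a log2 ratio to that mix. The 4 groups were as follows. Snd1 knockdown cells (3 arrays) were the wild-type line WTA with a lentiviral short hairpin RNA against Snd1, selected with puromycin. Vector cells (3 arrays) were WTA with the empty LKO1 vector under the same selection. W391D rescue cells (1 array) were the Mtdh-knockout line KO2 given Mtdh with the W391D change, which the study describes as deficient in binding Snd1, in the vector LmPGK and sorted for GFP. Wild-type rescue cells (1 array) were KO2 given unchanged Mtdh in the same GFP vector. No untreated cells were analysed here, each genotype was represented by a single line, and the labels do not say whether replicate numbers mark separate cultures, so p-values measure the spread between these samples, which may be technical.

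In EMT, epithelial cells lose E-cadherin junctions and take on the filaments, matrix enzymes and motility of mesenchymal cells. Zinc-finger proteins of the SNAI and ZEB families bind the E-box letters CAGGTG and repress Cdh1, while the helix-loop-helix TWIST proteins and the forkhead protein FOXC2 act alongside them in mesoderm and in tumour cells. In mammary tumours, high vimentin and N-cadherin with low E-cadherin are the usual marks of this state.

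Promoter sequence was read for Snai1 and Vim, because the first encodes a factor that binds CAGGTG and the second was among the 3 genes of the set that rose more than 2-fold. Both windows are the 250 bases before the RefSeq transcription start in build GRCm38.p6, written 5′ to 3′ on the plus strand, at chr2:167537945-167538194 for Snai1 and chr2:13574061-13574310 for Vim. Capitals mark the letters CAGGTG or their reverse complement CACCTG, the wider E-box CANNTG that contains them being searched as well.
Snai1 promoter: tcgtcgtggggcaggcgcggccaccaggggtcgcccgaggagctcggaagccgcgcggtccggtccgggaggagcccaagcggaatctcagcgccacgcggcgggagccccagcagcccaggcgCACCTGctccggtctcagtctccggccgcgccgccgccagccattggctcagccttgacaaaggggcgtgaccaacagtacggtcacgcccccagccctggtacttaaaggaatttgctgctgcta
Vim promoter: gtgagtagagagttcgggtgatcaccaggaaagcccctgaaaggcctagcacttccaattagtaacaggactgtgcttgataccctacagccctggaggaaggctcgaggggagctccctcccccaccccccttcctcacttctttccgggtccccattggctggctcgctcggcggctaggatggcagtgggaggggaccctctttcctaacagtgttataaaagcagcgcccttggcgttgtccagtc
The Snai1 window held 1 such match, starting 126 bases before the transcription start, and the Vim window held none. Of 32851 promoter windows of the same length, 17.2% held CAGGTG or CACCTG and 66.2% held CANNTG, on either strand. Windows of 5 of the 10 genes were searched, and those of Twist1, Twist2 and Zeb2 held no CANNTG match. Cdh1 and Foxc2 were not among the 5, so the motif was not looked for at Cdh1. A match here is a run of letters, not a measured binding site.

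Median Cy5 intensity was 158 to 363 per array over a background of 61 to 72, 78% to 88.5% of spots were well above background in Cy5, and the number of arrays limits precision. Arrays of one group resembled each other closely (r of 0.983 to 0.994 within the knockdown and 0.982 to 0.993 within vector, against 0.855 to 0.874 between these groups). The first knockdown array and the first vector array shared slide 1, the other 4 of that experiment shared slide 2, and each rescue array had its own slide, so slide and rescue construct cannot be told apart. Snd1 itself was at -3.23, -3.33 and -3.44 on the knockdown arrays, against -2.49, -2.40 and -2.43 on the vector arrays, a fall of 0.90 ± 0.06 on the log2 scale (SE; adjusted p = 8.66e-06). As for the labelled cell type, all 8 listed mammary epithelial markers were well above background on every array. Their summed Cy5 signal was 396930 to 419932 in the knockdown and 561252 to 577950 in vector, and 7 of the 8 fell while 0 rose. By the same test, described below, 25.6% of named genes fell and 26% rose, to be set beside the marker counts here. Fibroblast markers moved the other way, with a sum of 21882 to 24696 in the knockdown and 9612 to 10678 in vector; 6 of the 9 that were tested rose, led by Postn, Pdgfrb and Col1a1 (2.72, 2.44 and 2.39 on the log2 scale), and Dcn, Lum and Thy1 did not pass the test (0.02, 0.10 and 0.20). The sum for leukocyte markers was 7595 to 7755 in the knockdown and 9055 to 9919 in vector, with 2 of 8 tested higher and 2 lower, and that for endothelial markers was 4336 to 4925 in the knockdown and 3450 to 3845 in vector, with 3 of 6 higher and 2 lower. Fap, a fibroblast marker, was not well above background on 7 of the 8 arrays, and Tek, an endothelial one, on any. In bulk RNA a change in the number of cells of a type and a change in RNA per cell cannot be told apart, and the part of other cells in the results below was not tested.

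In Snd1 knockdown cells most of the mesenchymal genes of the set were higher, and E-cadherin was lower. Of the 10 genes, 7 rose (Snai1, Twist2, Zeb1, Zeb2, Foxc2, Cdh2 and Vim), 1 fell (Cdh1) and 2 did not pass the test (Snai2 and Twist1), at an adjusted p under 0.05 in limma's fit over 33564 probes. The test called much of the array: 51.6% of 17225 named genes were called, 26% higher and 25.6% lower, as were 45.7% of all probes, 23.6% higher and 22.1% lower. The median change of the 10 genes was 0.58 on the log2 scale, beside 0.015 over all named genes tested. The 3 knockdown values and the 3 vector values did not overlap for 8 of the 10, each by its brightest probe. The same held for 53.9% of 33551 probes, a share that counts every probe and not 1 per gene. More than a 2-fold rise was seen for Foxc2, Vim and Zeb2, and more than a 2-fold fall for 0 of the 10.

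**Figure D1:**
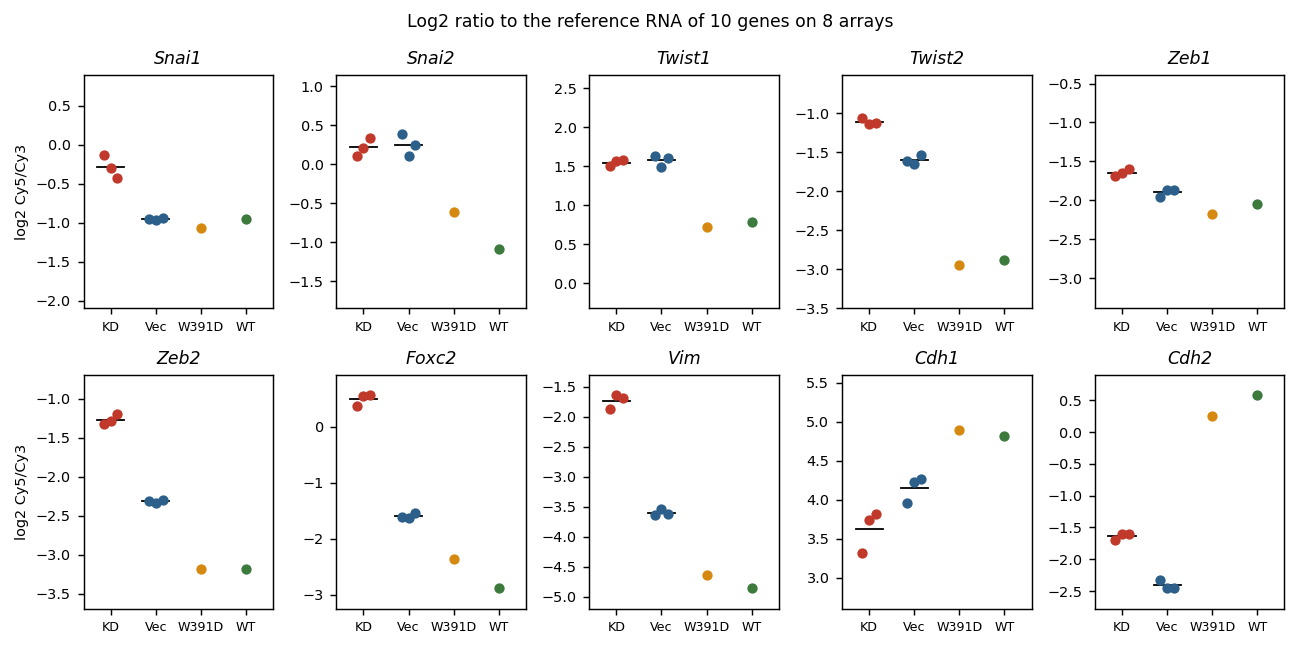
Log2 Cy5/Cy3 of the 10 genes on the 8 arrays, with a panel and an axis range of its own for each gene; points are arrays in the order Snd1 knockdown (KD), vector (Vec), W391D rescue and wild-type rescue (WT), and lines are means of 3 arrays. The knockdown points lie apart from the vector points in every panel but those of Snai2 and Twist1.

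Among the SNAI zinc-finger factors, Snai1 rose and Snai2 did not pass the test. Snai1, a direct repressor of Cdh1, was at -0.13, -0.30 and -0.43 on the knockdown arrays, against -0.95, -0.96 and -0.94 on the vector arrays. All knockdown values were above all vector values, and the vector arrays were nearly identical. The difference was 0.66 ± 0.07 (SE), or 1.58-fold (adjusted p = 0.000111), with 0.82 within slide 1 and 0.59 within slide 2. Both rescue arrays were at or just below the vector level, at -1.07 for W391D and -0.95 for wild type. Snai2 (Slug), which in mammary epithelium also marks basal and stem-like cells, was at 0.11, 0.21 and 0.33 on the knockdown arrays, against 0.39, 0.10 and 0.24 on the vector arrays. These ranges overlapped. The difference was -0.02 (95% interval -0.21 to 0.17, adjusted p = 0.853), and it was -0.27 within slide 1 and 0.10 within slide 2. Snai2 was lower in the rescue line than in vector cells, at -0.61 for W391D and -1.09 for wild type.

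Of the TWIST genes, Twist2 rose and Twist1 did not pass the test. Twist1, a helix-loop-helix factor of cranial mesoderm and of metastatic mammary tumours, was at 1.50, 1.56 and 1.58 on the knockdown arrays, against 1.63, 1.49 and 1.61 on the vector arrays. The groups overlapped, and the difference of -0.03 (95% interval -0.15 to 0.09) did not pass the test (adjusted p = 0.668). When arrays were centred on their median in place of loess, the difference was -0.20 and passed it (adjusted p = 0.0372). Twist2, its close paralog in dermis and mesenchyme, was at -1.06, -1.14 and -1.13 on the knockdown arrays, against -1.62, -1.65 and -1.54 on the vector arrays. The groups were separate, with a difference of 0.50 ± 0.05, or 1.41-fold (adjusted p = 6.94e-05), and 0.57 and 0.46 within slides 1 and 2. Both genes were lower in the rescue line than in vector cells: Twist1 was at 0.72 for W391D and 0.79 for wild type, and Twist2 at -2.95 and -2.88.

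Both ZEB genes rose. Zeb1, the zinc-finger homeobox repressor held in check by the miR-200 family, was at -1.69, -1.65 and -1.60 on the knockdown arrays, against -1.95, -1.86 and -1.86 on the vector arrays. The groups did not overlap, but the difference was the smallest of the 8 that passed the test: 0.24 ± 0.05, or 1.18-fold (adjusted p = 0.00395). The call was lost with median centring (0.15, adjusted p = 0.0745), with scaling between arrays (0.26, adjusted p = 0.105) and with the Cy5 channel alone (0.235, adjusted p = 0.104). The brightest Zeb2 probe was at -1.32, -1.29 and -1.20 on the knockdown arrays, against -2.31, -2.34 and -2.30 on the vector arrays. This was a rise of 1.05 ± 0.05, or 2.06-fold (adjusted p = 1e-06), of 0.99 within slide 1 and 1.07 within slide 2.

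The 3 Zeb2 probes did not give the same size. The second, at -1.31, -1.40 and -1.33 in the knockdown and -1.93, -2.16 and -1.98 in vector, rose by 0.68 ± 0.07 (adjusted p = 5.2e-05). The third was not well above background on any knockdown array or on 7 of the 8 arrays in all, with Cy5 intensities of 77 to 99 in the knockdown and 77.5 to 116 in vector, and was not tested. The mean of the 3 probes gave a difference of 0.57. In the rescue line Zeb1 was below the vector level, at -2.17 for W391D and -2.05 for wild type. So was the brightest Zeb2 probe, at -3.19 on both arrays. The second Zeb2 probe was at -2.42 for W391D and -2.16 for wild type, the latter level with the lowest vector array.

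Foxc2, a forkhead factor of mesoderm and lymphatic vessels that is also linked to mesenchymal differentiation in breast tumour cells, had the largest measured change of the 10 genes. It was at 0.37, 0.55 and 0.56 on the knockdown arrays, against -1.61, -1.64 and -1.54 on the vector arrays. Knockdown cells were thus above the reference mix and vector cells below it, with no overlap. The difference was 2.09 ± 0.06, or 4.26-fold (adjusted p = 1.16e-07), and 1.99 and 2.14 within slides 1 and 2. A change of that size or more was seen in 0.842% of named genes. Foxc2 was lower still in the rescue line, at -2.37 for W391D and -2.89 for wild type.

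Vimentin, the type III intermediate filament of mesenchymal cells, followed the same order. Vim was at -1.87, -1.64 and -1.69 on the knockdown arrays, against -3.64, -3.53 and -3.62 on the vector arrays. All samples were below the reference mix, and knockdown cells were the closest to it. The rise was 1.87 ± 0.07, or 3.64-fold (adjusted p = 2.86e-07), with 1.77 within slide 1 and 1.91 within slide 2, and 1.18% of named genes changed by as much. Its spots were bright, with median Cy5 intensities of 31136 to 80487 in the knockdown and 11087 to 26922 in vector. The rescue line had the lowest values, -4.63 for W391D and -4.86 for wild type.

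**Figure D2:**
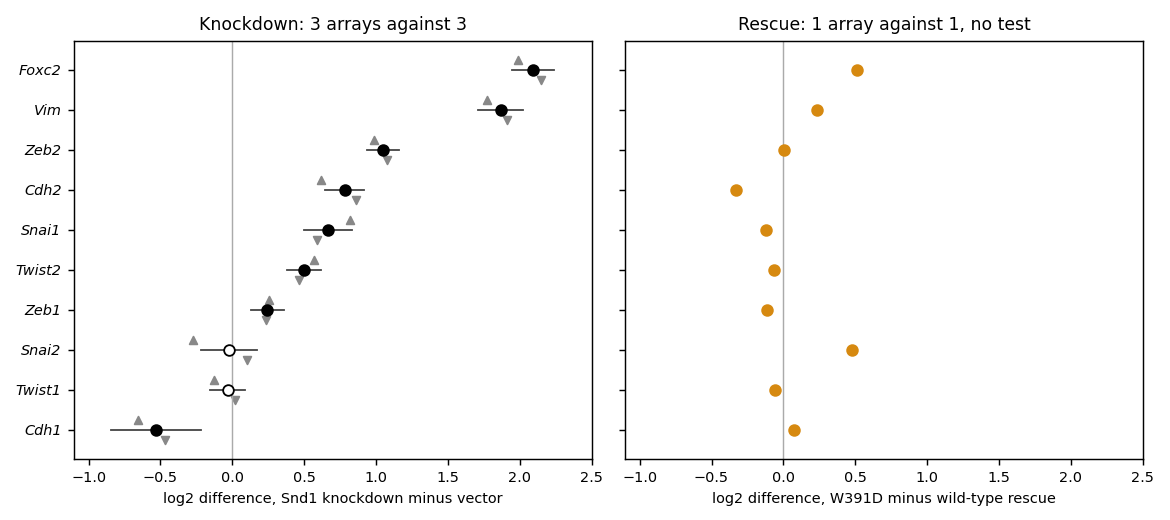
Left, log2 difference of each gene, Snd1 knockdown minus vector, with 95% intervals (filled points passed the test, open points did not) and with the differences within slide 1 (upward triangles) and slide 2 (downward triangles); right, W391D minus wild-type rescue, 1 array each and no test. The order runs from Foxc2 (2.09) and Vim (1.87) to Cdh1 (-0.53), while all 10 rescue differences lie between -0.33 and 0.51.

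The cadherins moved in opposite directions. Cdh2 (N-cadherin), the neural and mesenchymal cadherin, was at -1.70, -1.60 and -1.60 on the knockdown arrays, against -2.32, -2.46 and -2.46 on the vector arrays. The groups did not overlap, and the rise was 0.78 ± 0.06, or 1.72-fold (adjusted p = 1.17e-05), with 0.62 and 0.86 within slides 1 and 2. The Cdh2 spot was of low intensity, though well above background, with Cy5 of 195 to 307.5 in the knockdown and 138 to 214 in vector. Its local background on these arrays was 61 to 77. The scanner software's own log ratios gave a larger difference, 1.19. In the rescue line Cdh2 was above the vector level: W391D cells were at 0.25 and wild-type rescue cells at 0.58, a mean of 2.82 above vector.

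Cdh1 (E-cadherin), the adherens junction protein of epithelia, was at 3.31, 3.74 and 3.81 on the knockdown arrays, against 3.96, 4.23 and 4.27 on the vector arrays. All groups were thus far above the reference mix, and all knockdown values were below all vector values. Cdh1 fell by 0.53 ± 0.14 on the log2 scale, or 1.45-fold (adjusted p = 0.0122), and by 0.65 within slide 1 and 0.47 within slide 2. It was the highest in the rescue line, at 4.89 for W391D and 4.82 for wild type.

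The size of the Cdh1 difference depended on how the signals were processed. The array carried 1 Cdh1 probe in 10 spots, whose log2 ratios varied within an array by an SD of 0.058 to 0.156. Between arrays the SD was 0.273 in the knockdown and 0.167 in vector (n = 3 each). Median Cy5 intensity was 2051, 3647 and 3658 on the knockdown arrays, against 5545, 10863 and 10035 on the vector arrays, with 35020 for W391D and 38062 for wild-type rescue. The Cy3 signal comes from the same reference RNA on every array, yet it followed the same order. It was 86, 112.5 and 110 in the knockdown, 117, 186 and 179 in vector, 312.5 for W391D and 344.5 for wild-type rescue. Over the 6 arrays of slides 2 to 4, the highest Cdh1 Cy3 signal was 3.13 times the lowest, against 1.08 to 1.52 times for the other probes of the set and a median of 1.26 times over named genes, of which 0.196% spread as widely. The cause of this was not tested. With the Cy5 channel alone, after quantile normalization, mean log2 intensity was 11.76 in the knockdown and 12.92 in vector, a difference of -1.15, or 2.22-fold lower. With the scanner software's log ratios the difference was -0.245 and was not called (adjusted p = 0.1), while with median centring it was -0.81. The direction was the same in all of these.

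**Figure D3:**
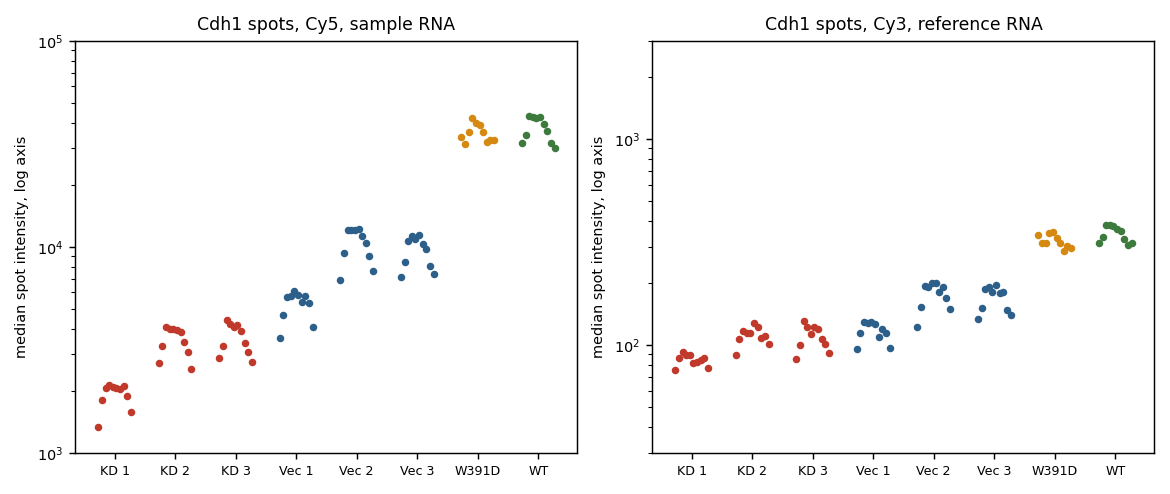
Median intensity of the 10 Cdh1 spots on each array on log axes, Cy5 (sample RNA) on the left and Cy3 (reference RNA) on the right, for Snd1 knockdown (KD), vector (Vec), W391D and wild-type (WT) rescue. Both channels are lowest in the knockdown and highest on the rescue arrays.

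Between the rescue constructs, none of the 10 genes differed by 2-fold. The question put by that experiment is what the Snd1-binding residue of Mtdh contributes under camptothecin. W391D minus wild type was above 0 for 5 genes and below 0 for 5, with a median of -0.03, and 0 of the 10 passed 2-fold, as did 0 of 17649 named genes (0%). The largest differences were those of Foxc2 (0.51), Snai2 (0.48), Cdh2 (-0.33) and Vim (0.23). Foxc2 was at -2.37 in W391D cells and -2.89 in wild-type rescue cells, Snai2 at -0.61 and -1.09, and Vim at -4.63 and -4.86. For scale, the central 90% of named genes lay between -0.22 and 0.19, and 0.306% and 0.419% differed by as much as Foxc2 and Snai2. Cdh2 turned to 0.17 with the Cy5 channel alone, and Vim to -0.01 with scaling between arrays. Mtdh itself was at -0.10 in W391D cells and 0.42 in wild-type rescue cells by its brightest probe, and at -0.16 and 0.01 by the second. With 1 array each, these differences have no replicate check.

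Set beside the vector line, the rescue line gave a mixed picture. Both of its arrays lay outside the 3 vector values on the same side for 9 of the 10 genes, Snai1 being the exception, but so did 66.1% of named genes. By brightest probe, Snai2, Twist1, Twist2, Zeb1, Zeb2, Foxc2 and Vim were lower in the rescue line. The gap ran from 0.22 (Zeb1) to 1.31 (Twist2) on the log2 scale, and Cdh1 was 0.71 higher. At the second Zeb2 probe, rescue mean minus vector mean was -0.26. Cdh2 was thus the only mesenchymal gene of the 10 that was higher in the rescue line. These lines differ in genotype, vector, selection and slide, and no test was made.

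Among mesenchymal effector genes, a list of matrix, protease and cytoskeletal genes, 17 of 33 rose, 11 fell and 5 did not pass the test. Their median was 0.15 on the log2 scale, beside 0.015 over all named genes. Of all named genes tested, 26% were called higher and 25.6% lower, which also stands beside the lists below. The leading genes act on the matrix or the cytoskeleton. The membrane protease gene Mmp14 rose by 4.45 ± 0.07 (adjusted p = 8.78e-09), and by 1.23 at its second probe. The protease inhibitor gene Timp1 rose by 3.94 ± 0.06 (adjusted p = 7.91e-09), the tropomyosin gene Tpm2 by 2.81 ± 0.13 (adjusted p = 8.6e-07) and the gelatinase gene Mmp2 by 1.86 ± 0.09 (adjusted p = 9.77e-07). Wnt5a, Fbn1 and Vcan also passed 2-fold, at 1.04 to 1.07. The list did not move as a block: fibronectin (Fn1, -0.44), the hyaluronan receptor Cd44 (-0.55), Mmp9 (-0.46), Mmp3 (-0.92) and the kinase receptor Axl (-0.34) fell. Stromal cells also make many of these matrix proteins. As given above, the summed signal of fibroblast markers was higher in the knockdown. Postn, Pdgfrb and Col1a1 rose the most, while Dcn, Lum and Thy1 were not called. The part of such cells was not tested.

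Of 16 other EMT-inducing transcription factors, 4 rose, 5 fell and 7 did not pass the test (median -0.025). The T-box factor Tbx3 rose by 3.82 ± 0.08 (adjusted p = 1.81e-08) and the paired-type homeobox factor Prrx1 by 2.02 ± 0.07 (adjusted p = 1.99e-07), with 1.26 and 1.43 at its other probes. The Hippo-pathway coactivator Wwtr1 (TAZ) fell by 0.50 at its brightest probe but was 0.26 higher at the other, and its paralog Yap1 fell by 0.57.

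Among 23 partners and regulators of these factors, 9 rose, 5 fell and 9 did not pass the test (median 0.04). The inhibitor-of-DNA-binding genes, whose products sequester helix-loop-helix proteins, were all higher. Id2 rose by 2.31 ± 0.11 (adjusted p = 1.04e-06), Id4 by 1.74 ± 0.10 (adjusted p = 3.16e-06), Id1 by 0.82 and Id3 by 0.66. Ezh2, the catalytic subunit of a Polycomb methyltransferase, fell by 0.84 ± 0.05 (adjusted p = 2.32e-06).

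Of 17 other listed cadherins, 2 rose, 1 fell and 14 did not pass the test (median 0.04). Cdh11, a cadherin of mesenchymal cells and bone, rose by 0.51 ± 0.05 at its brightest probe (adjusted p = 4.04e-05) and by 1.84 and 2.56 at its other probes, and its call at the brightest probe was lost with the Cy5 channel alone (adjusted p = 0.129). Cdh17 (0.27) and the endothelial Cdh5 (-0.54) passed narrowly and lost their calls in 5 and 7 of 21 alternatives, and the other Cdh5 probe, at -0.17, was not called. P-cadherin (Cdh3), the basal epithelial cadherin, was at 0.04 and was not called. Its Cy5 signal was low, with mean log2 intensity of 7.53 in the knockdown and 7.64 in vector. Some others not called were dimmer, such as Cdh10 (6.79 and 6.65) and Cdh6 (6.90 and 6.79). For such dim probes, the lack of a call says little about change.

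Of 14 catenins and cadherin partners, 3 rose, 6 fell and 5 did not pass the test (median -0.08). Alpha-catenin (Ctnna1), which links the cadherin complex to actin, fell by 0.68 ± 0.05 (adjusted p = 7.86e-06) and Nectin3 by 0.42, while Nectin1 rose by 0.38 and Cbll1 (Hakai), an E-cadherin ubiquitin ligase, by 0.36. The other Nectin3 probes, at -0.155 and -0.165, and the other Cbll1 probe, at 0.02, were not called. Beta-catenin (Ctnnb1) fell by 0.14, and p120-catenin (Ctnnd1) was at -0.04, not called. Of 10 other intermediate filaments and linkers, 2 rose, 3 fell and 5 did not pass the test (median 0.08). Synemin (Synm), a filament protein that assembles with vimentin, rose by 0.97 ± 0.08 (adjusted p = 2.82e-05), and by 0.25 at its other probe. The linker Dst rose by 0.36, a call lost with the Cy5 channel alone (adjusted p = 0.107), and was at 0.17 and 0.02 at its other probes. Neurofilament heavy chain (Nefh) fell by 0.66, and Sync fell by 0.24, a call lost in 7 of the 21 alternatives. Neither was called at its other probe, where Nefh was at -0.10 and Sync at -0.01.

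**Figure D4:**
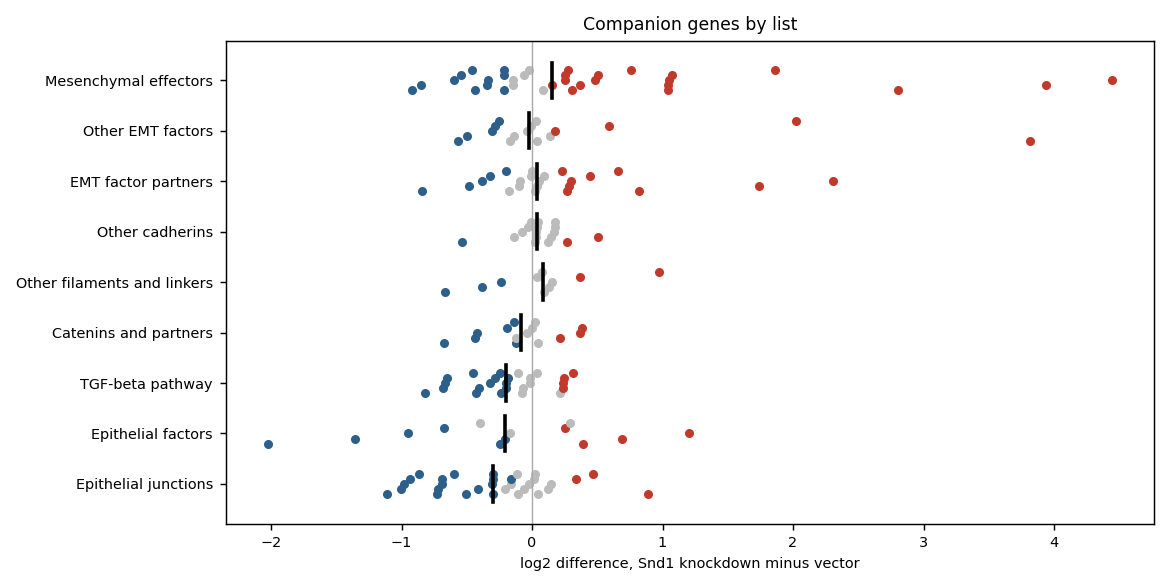
Log2 difference, Snd1 knockdown minus vector, of each tested gene in 9 lists related to EMT; red points rose, blue points fell, grey points did not pass the test, and black bars are list medians. Medians run from 0.15 for mesenchymal effectors to -0.30 for epithelial junction genes, and single genes of both signs occur in all lists.

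Among genes of TGF-beta signalling, a classical inducer of EMT, more fell than rose. Of 25 ligands, receptors and SMADs, 4 rose, 14 fell and 7 did not pass the test (median -0.20). The latency protein gene Ltbp3 fell by 0.82 ± 0.06 (adjusted p = 7.3e-06) and by 0.24 at its other probe. The ligand Tgfb2 fell by 0.68 ± 0.06 (adjusted p = 1.87e-05) and the shared mediator Smad4 by 0.65 ± 0.05 (adjusted p = 8.86e-06). The receptor Bmpr1a fell by 0.67 ± 0.04 (adjusted p = 5.19e-06), but its other probe was 0.17 higher. Tgfbr2 fell by 0.45, and Tgfb1 was at 0.035, not called.

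More of the listed epithelial genes fell than rose. Of 31 junction and surface genes, 3 rose, 17 fell and 11 did not pass the test (median -0.30). Tjp3, a tight junction scaffold, fell by 1.12 ± 0.05 (adjusted p = 4.97e-07), the desmosomal Pkp2 by 1.00 ± 0.04 (adjusted p = 7.7e-07), the membrane protease St14 by 0.98 ± 0.05 (adjusted p = 9.85e-07) and the luminal keratin Krt8 by 0.86 ± 0.05 (adjusted p = 2.75e-06). The other St14 probe fell by 0.51. Epcam fell by 0.73 and occludin (Ocln) by 0.72, whereas Krt19 (0.89), Dsc2 (0.47) and Cldn4 (0.34) rose. Of 13 epithelial transcription and splicing factors, 4 rose, 6 fell and 3 did not pass the test (median -0.21). Elf5, the factor of luminal progenitors and alveoli, fell by 2.03 ± 0.10 (adjusted p = 1.36e-06), the splicing factor Esrp1 by 1.36 and Grhl2, an activator of Cdh1, by 0.95 ± 0.08 (adjusted p = 1.63e-05), with a fall of 0.22 at the other Grhl2 probe. Klf4 and Elf3, also epithelial, rose by 1.20 ± 0.04 (adjusted p = 3.02e-07) and 0.69 ± 0.05 (adjusted p = 1.17e-05). Ovol1 (0.39) and the splicing factor Esrp2 (0.26) also rose.

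The named genes whose profile over the 8 arrays came closest to Vim and to Cdh1 were found from the root mean square difference of log2 ratios centred on the mean of the arrays, among 15954 genes above background on all 8. For Vim these were Plagl1, a zinc-finger factor (0.11), Tmem151a (0.134) and Id4 (0.142). Plagl1 was at 2.16, 2.10 and 2.19 in the knockdown, against 0.22, 0.18 and 0.21 in vector, and at -0.77 for W391D and -0.83 for wild-type rescue. Its difference between knockdown and vector was 1.95, and 0.29 at the other Plagl1 probe. For Cdh1 they were Akap7, an anchor of protein kinase A (0.081), Afdn, the afadin of adherens junctions (0.103), and Tjp1, the tight junction scaffold ZO-1 (0.111). Afdn was at -0.63, -0.45 and -0.41 in the knockdown, against -0.18, -0.04 and 0.04 in vector, and at 0.74 for W391D and 0.78 for wild-type rescue. The brightest Afdn probe differed by -0.44 between knockdown and vector, against -0.26, 0.03 and -0.15 at its other probes, and that of Tjp1 by -0.42, against -0.16. The 8 arrays fall into 4 groups and share their reference RNA.

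**Figure D5:**
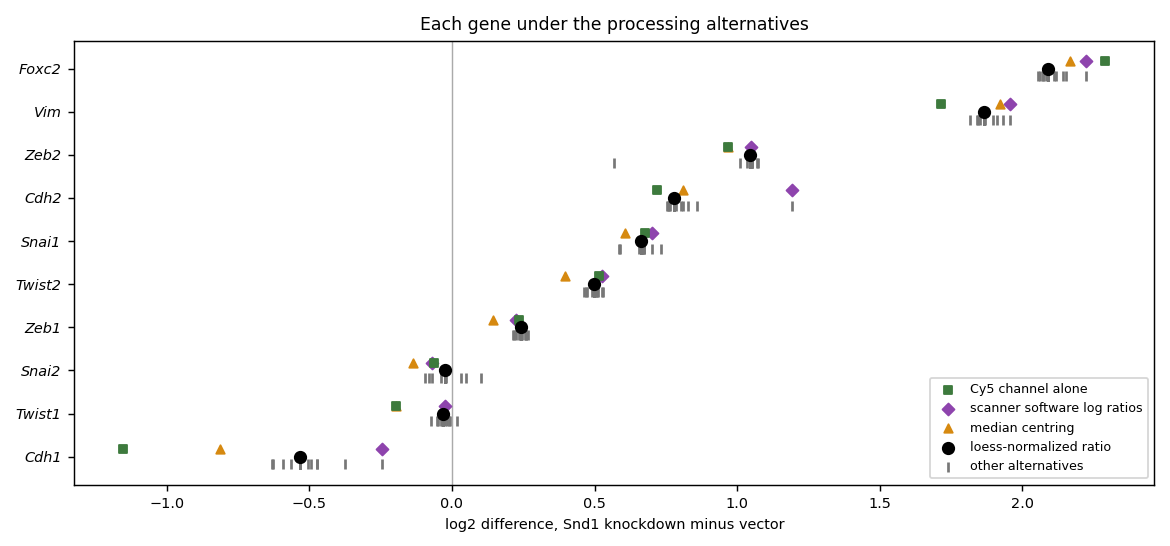
Log2 difference, Snd1 knockdown minus vector, of each of the 10 genes as reported (black) and under 21 alternatives, with the Cy5 channel alone (squares), the scanner software's log ratios (diamonds) and median centring (triangles) marked. The reported order from Foxc2 to Cdh1 is spread widest at Cdh1, between -1.15 and -0.24, and no gene that passed the test changes sign.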

How the data were processed

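The deposited scanner files hold spot intensities of both dyes, per the file headers median pixel signals from Agilent Feature Extraction 11.0.1.1 (9.5.3.1 per the submitters' processing notes), not normalized; mean signals had been planned and were not used here. The deposited log10 ratios were made by the same software, which subtracts background, corrects for the dyes and divides Cy5 by Cy3, per the file headers. The deposited series table holds log2 ratios that matched those of their own arrays (r of 0.9878 to 1 over 41156 probes), with column medians of 0.026 to 0.146, so uncentred. Other deposited columns, the software's spot flags per the file headers, were used as given.

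In R 4.3.3, limma 3.58.1 corrected the intensities by normexp with an offset of 50 and normalized each array by loess. Control spots (1639) and outlier spots (77 to 142 per array) were left out; 0 spots were saturated. Spots of a probe were averaged. Accessions were matched to RefSeq symbols, which named 27668 probes. A gene is its brightest probe.

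Knockdown and vector (3 arrays each) were compared by lmFit and eBayes on the 33564 probes whose Cy5 signal exceeded background, by the software's flag, on 3 or more of the 6 arrays. Adjusted p-values are Benjamini-Hochberg over these probes, called under 0.05. All 10 genes and 11 of their 12 probes passed this filter. Rescue differences have 1 array per group and no test. The script was tested on simulated data.

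Named genes are the 10 members, Snd1 and Mtdh, up to 4 called genes of each list by smallest p, and 3 genes nearest in profile to Vim and to Cdh1; the others were named after their values were seen, and results for some list genes are not reported here. Members and lists were chosen with earlier results of these data known. Same-numbered knockdown and vector arrays deviated together from their group means (r of 0.57, 0.308 and 0.312), and the numbers were taken as pairs in an alternative. Unlike-numbered arrays within slide 2 gave 0.369 and 0.216, so these values do not single out pairs by number there. The pairing follows the slides, since pairs across slides gave -0.35 to -0.48. Deviations from a group mean are tied to each other, so these r values are not independent. Other alternatives were the background correction, software ratios, series table, centring, scaling, Cy5 alone, filters, probe averaging, a slide block, slide 2 alone, robust eBayes, thresholds and each replicate left out.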

Additional observations from a re-analysis of the deposited data

How the results depend on the processing

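Of 210 gene-by-setting values for the 10 genes under 21 alternatives, 199 kept both sign and call, and 0 changed the sign of a called gene. The sign of genes not called turned in 4: Snai2 was at 0.101 within slide 2, 0.03 without the first knockdown array and 0.048 without the first vector array, and Twist1 at 0.016 within slide 2. Cdh1 was not called with the software ratios or the series table (-0.245, adjusted p = 0.1, each) or at an adjusted p under 0.01 (-0.533, adjusted p = 0.0122), so genes of the set called lower numbered 0 under these 3, and 2 under median centring, where Twist1 joined (-0.197, adjusted p = 0.0372). Zeb1 was not called with median centring (0.145), scaling between arrays (0.259) or the Cy5 channel alone (0.235). Probes called higher numbered 7918, and 4950 with the Cy5 channel alone. Median centring left 3392 named genes higher and 5124 lower, or 39.8% of calls higher in place of 50.4%. The replicate block changed no call of the 10 genes and gave 9040 probes higher and 8112 lower; under it Cdh1 was at -0.533 (adjusted p = 8.35e-05). Leaving out each array in turn kept every call of the 10 genes, with Cdh1 between -0.63 and -0.376, Snai1 between 0.586 and 0.733, Zeb1 between 0.213 and 0.266 and Foxc2 between 2.057 and 2.153. Among 378 list counts, 344 stayed within 1.5 times; other cadherins called higher numbered 1 to 5 and lower 0 to 2. Of 70 rescue differences, which have no replicates, 23 moved by more than the gene's pooled SD among the knockdown and vector arrays, and Snai1 turned to 0.01 with the Cy5 channel alone. The cause of these changes was not tested. The 3 arrays per group and the dim last Zeb2 probe limit precision.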

Other observations

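The gap between the ratio and the Cy5 channel alone seen for Cdh1 also occurred in other epithelial genes, a comparison made after their values were seen. In the list of junction and surface genes the median difference, Snd1 knockdown minus vector, was -0.30 by the ratio and -0.56 (-0.555) by the Cy5 channel alone, and 11 of 31 genes were lower by more than 0.25 in the second than in the first, against 1 that was higher by as much. Among 33 mesenchymal effectors, 0 were lower and 1 was higher by that margin, with medians of 0.15 and 0.17. Over 17225 named genes, 1.85% were lower and 2.45% higher by that margin. The basal keratin Krt14 differed by -1.15 by the ratio and by -2.76 by the Cy5 channel alone, where its mean log2 intensity was 10.81 in the knockdown and 13.57 in vector. Rab25, a small GTPase of epithelial recycling, differed by -0.30 and -1.39, and the claudin Cldn3, at 0.015 by the ratio and not called, by -0.61. Evpl, an envelope protein of stratified epithelium, was at 0.12 by the ratio and not called, and at -0.52 by the Cy5 channel alone.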
